A study of Mus musculus with 3 samples.

Results

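MHC class I genes were followed across 3 libraries of mouse bone marrow cells, as 10 of the 33696 genes in the count tables. The 10 were listed by symbol and no measured value entered the rule, but they were chosen with earlier results of these data known. They are the classical heavy chains H2-K1 and H2-D1, the nonclassical heavy chains H2-Q4, H2-Q6, H2-Q7, H2-T22 and H2-T23, the shared light chain B2m, the peptide transporter subunit Tap1 and the class I transactivator Nlrc5. All 10 had at least 20 UMIs in every library pair compared. A UMI (unique molecular identifier) marks 1 captured RNA molecule.

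The series concerns the role of Fabp4, a cytosolic fatty acid carrier, in leukaemia stem cells as against normal blood stem cells. One library came from wild-type mice, another from mice heterozygous for a Fabp4 knockout, and the third from mice homozygous for it. Each pooled the marrow of 2 mice, and the cells of those 2 mice are not told apart. The labels give no strain, age, sex or deleted exon and are silent on whether leukaemia was present. A single library stands for each genotype, which leaves the spread between animals unknown, so no test was run. Every interval below is a 95% interval for counting error only, and every difference is between these libraries.

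MHC class I molecules carry short peptides, cut from proteins inside the cell, to the cell surface for inspection by CD8 T cells. A heavy chain folds around its peptide together with beta-2 microglobulin, the product of B2m. TAP, a heterodimer of Tap1 and Tap2, pumps the peptides into the endoplasmic reticulum. Classical molecules are found on nearly all nucleated cells, whereas nonclassical ones have more restricted tasks: H2-T23 encodes Qa-1, a ligand of the NKG2A receptor on natural killer cells, and H2-Q6 and H2-Q7 belong to the Qa-2 group. NLRC5 drives class I genes through a promoter module, the SXY module, that RFX, CREB/ATF and NF-Y proteins occupy. Interferons raise many genes of the pathway.

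The upstream sequences of 6 of the 10 genes are shown because they carry the elements that are known to join these genes into one pathway and because they differ between the members. They are RefSeq sequences of build GRCm38.p6 upstream of an annotated transcript start, read 5′ to 3′ on the gene's strand. Capitals mark AAGTGAAA (an interferon-type element, here on the reverse strand as TTTCACTT), GGGATTCC (a kB-type element), TGNTGAC (the X2 box type) and CCAAT (the Y box type, or ATTGG in reverse). In H2-T23 the X2-type match is on the reverse strand, as GTCAACA.
H2-K1: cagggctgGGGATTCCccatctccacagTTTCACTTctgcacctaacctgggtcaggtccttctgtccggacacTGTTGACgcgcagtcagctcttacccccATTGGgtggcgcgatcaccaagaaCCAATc
H2-D1: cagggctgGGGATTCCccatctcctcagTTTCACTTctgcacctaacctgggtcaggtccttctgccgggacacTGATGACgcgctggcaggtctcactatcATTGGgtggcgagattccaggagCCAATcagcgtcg
H2-Q7: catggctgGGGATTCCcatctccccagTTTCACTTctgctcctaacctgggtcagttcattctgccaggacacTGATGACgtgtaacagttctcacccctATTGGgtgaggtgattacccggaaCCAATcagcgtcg
H2-T22: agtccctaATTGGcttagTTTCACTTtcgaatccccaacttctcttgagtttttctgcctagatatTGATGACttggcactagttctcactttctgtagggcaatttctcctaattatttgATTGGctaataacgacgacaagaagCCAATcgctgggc
B2m: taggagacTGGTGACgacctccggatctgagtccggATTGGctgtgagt
H2-T23: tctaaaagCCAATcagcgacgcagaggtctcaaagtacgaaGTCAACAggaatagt
The H2-K1 stretch lies at chr17:34000334-34000465 on the minus strand, H2-D1 at chr17:35262916-35263053 on the plus strand and H2-Q7 at chr17:35439015-35439151 on the plus strand. H2-T22 lies at chr17:36042793-36042951 and H2-T23 at chr17:36032706-36032761, both on the minus strand. B2m lies at chr2:122147598-122147646 on the plus strand.

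All 9 members with a sequence in the table were searched over the 250 bases upstream, on both strands; Nlrc5 has no entry. H2-K1, H2-D1, H2-Q6 and H2-Q7 held all 4 elements. The interferon-type element was in 6 of the 9 members and in 1.36% of all 32851 upstream windows. The kB-type element was in 4 of 9 against 0.889% of windows. An X2-type match was in 8 of 9 against 11.7%, and CCAAT in 9 of 9 against 33.8%. An X2-type match followed by CCAAT or ATTGG within 60 bases was in 7 of 9 against 1.26%. H2-T23 held its CCAAT and X2-type matches in the other order, the X2-type match on the reverse strand, and Tap1 held only CCAAT. The letters follow what is known of class I promoters but were settled with these sequences in view, so the counts describe the sequences shown and say nothing of binding.

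Cells were kept if they had 500 or more UMIs, 200 or more genes and under 10% mitochondrial (mt-) UMIs. They numbered 5604 of 9432 barcodes in the wild-type library, 7957 of 10718 in the heterozygous and 4318 of 8115 in the homozygous library, with 46093025 to 72880881 UMIs per library and medians of 7658 to 10058 UMIs per cell. The libraries shared 21 to 26 barcodes pairwise, at most 0.283% of the smaller library. Fabp4 itself had 50 UMIs in the wild-type cells (0.745 CPM), 38 in the heterozygous (0.521 CPM) and 5 in the homozygous cells (0.108 CPM). The libraries also differed in sex-linked RNA: 91.9% of wild-type and 84.2% of homozygous cells had Xist UMIs and no Y-linked UMI, whereas 56.6% of heterozygous cells had Y-linked UMIs and no Xist. Sex therefore moves with genotype when whole libraries are compared with the heterozygous one. Cells with Xist only numbered 5151 in wild type, 1148 with heterozygous and 3636 with homozygous knockout, and values within them are given beside some of the results.

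In all kept cells every member was at or above its wild-type level in the homozygous library, H2-K1 only barely (its log2 ratio was 0.02, or -0.04 with median-of-ratios scaling), and the nonclassical sum stood further above it than the classical sum. Levels are CPM, meaning UMIs of the gene per 1000000 UMIs of the summed cells. The 2 classical genes together had 699 CPM in wild-type cells, 869 in heterozygous cells and 867 in homozygous cells. The 5 nonclassical genes together had 79.9, 90.6 and 126 CPM in that order. H2-T23 alone gave 51.1, 45.8 and 78.5 CPM of this, so the nonclassical sum largely follows that gene. Single members differed from the sums. The homozygous log2 ratio was 0.02 for H2-K1, 0.49 for H2-D1 and 0.53 to 0.85 for the 5 nonclassical genes. The intervals of H2-Q4 and H2-Q6 held the H2-D1 value. In the heterozygous library H2-T23 was at -0.16 and the other nonclassical genes at 0.35 to 1.15. The log2 ratio of homozygous to wild type was 0.31 (0.29 to 0.33) for the classical sum and 0.66 (0.60 to 0.71) for the nonclassical sum. For heterozygous to wild type it was 0.31 (0.30 to 0.33) and 0.18 (0.13 to 0.23). In cells with Xist only the heterozygous ratios were 0.65 and 0.63. In cells with Y-linked RNA only they were -0.22 and -1.50, but the wild-type library had 74 such cells, of which 9 were gated as T and natural killer cells. Both knockout libraries were set against the same wild-type library.

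Of the 10 members, 5 were at least 1.5-fold higher in the homozygous library (H2-Q7, H2-T22, H2-T23, Tap1 and Nlrc5) and 0 were at least 1.5-fold lower. Across all 17034 genes with at least 20 UMIs in the 2 libraries, 11.5% were at least 1.5-fold higher and 9.62% at least 1.5-fold lower. The median log2 ratio was 0.58 over the members and 0.06 over all genes. H2-T23, Tap1 and Nlrc5 lay close to the threshold, at 0.62, 0.63 and 0.64 against 0.585 on the log2 scale. The count of 5 was 2 with a median-of-ratios scaling and 2 with class levels weighted by the wild-type class shares. In the heterozygous library 2 of 10 members, H2-Q6 and H2-Q7, were at least 1.5-fold higher, against 11.6% of 17412 genes, and 0 were at least 1.5-fold lower, against 17.6%. The median was 0.33 over the members and -0.14 over all genes.

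**Figure D1:**
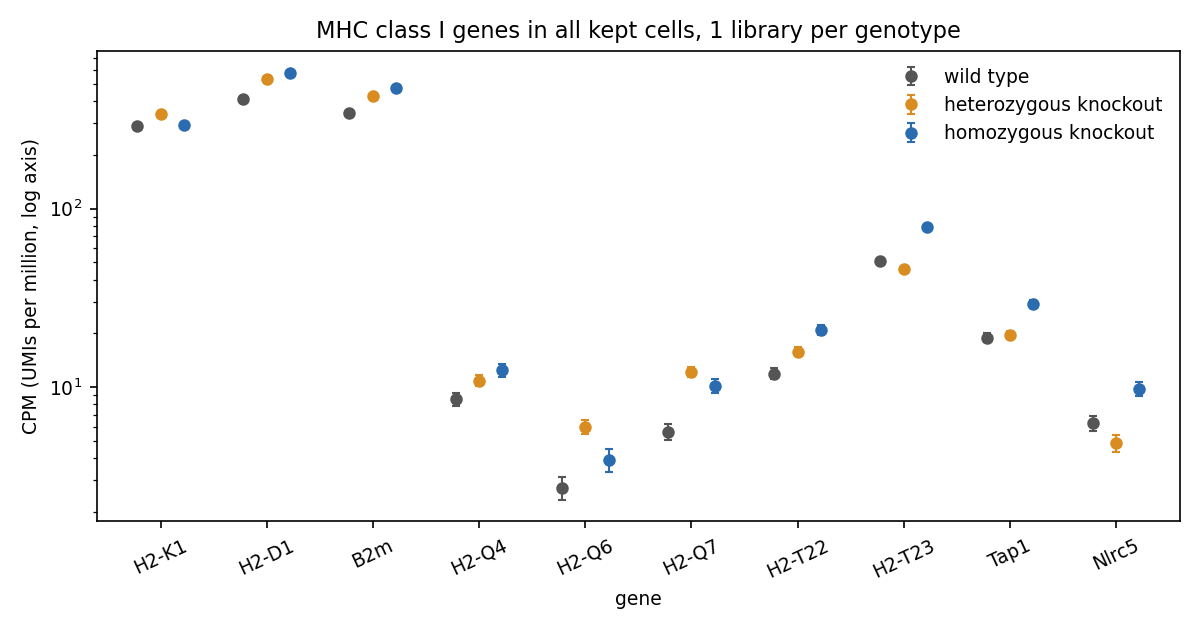
CPM of the 10 MHC class I genes (log axis) in all kept cells of each library, with 95% Poisson intervals for counting error. H2-K1 is at 289, 337 and 293 CPM in the wild-type, heterozygous and homozygous libraries, while H2-T23 is at 51.1, 45.8 and 78.5 CPM.

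The 2 classical heavy chains differed in pattern. H2-K1 had 289 CPM in the wild-type library, 337 in the heterozygous one and 293 in the homozygous one. Its log2 ratio to wild type was 0.02 (-0.01 to 0.05) in the homozygous and 0.22 (0.20 to 0.25) in the heterozygous library. H2-D1 had 410, 532 and 574 CPM in the same order, with log2 ratios of 0.49 (0.46 to 0.51) for homozygous and 0.38 (0.35 to 0.40) for heterozygous. The homozygous interval of H2-K1 spanned 0, while H2-D1 was 1.40-fold higher. B2m, the light chain that both need at the surface, had 344, 426 and 476 CPM. Its log2 ratios were 0.47 (0.44 to 0.50) for homozygous and 0.31 (0.28 to 0.33) for heterozygous, close to those of H2-D1. RNA of all 3 genes was found in most cells of every library: H2-D1 in 89.5%, 89.5% and 85.5% of cells, and H2-K1 in 87.0%, 82.6% and 80.6%. With each cell thinned to 1000 UMIs, the shares were 33.4%, 41.4% and 41.3% for H2-D1 and 25.4%, 30.2% and 28.7% for H2-K1.

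The nonclassical genes did not all follow the same order of libraries. H2-T22, which encodes a ligand of a subset of gamma delta T cells, had 11.9 CPM in wild-type cells, 15.8 in heterozygous cells and 21.0 in homozygous cells. H2-T23 had 51.1, 45.8 and 78.5 CPM. For these T-region genes the homozygous library was highest, with log2 ratios of 0.82 (0.68 to 0.95) and 0.62 (0.55 to 0.69). The heterozygous ratios were 0.40 (0.27 to 0.54) for H2-T22 and -0.16 (-0.23 to -0.09) for H2-T23. H2-Q6 had 2.71, 6.0 and 3.91 CPM and H2-Q7 had 5.63, 12.2 and 10.2 CPM. For this Qa-2 pair the heterozygous library was highest, with log2 ratios of 1.15 (0.89 to 1.40) and 1.11 (0.94 to 1.29). The homozygous ratios were 0.53 (0.22 to 0.83) and 0.85 (0.65 to 1.05). H2-Q4, another Q-region heavy chain, had 8.55, 10.9 and 12.4 CPM, with log2 ratios of 0.54 (0.37 to 0.71) for homozygous and 0.35 (0.19 to 0.50) for heterozygous.

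Counts of close relatives depend on how reads of shared sequence were assigned. In the last 500 bases of the GENCODE M21 transcripts, 51.2% of the 60-base windows of H2-T22 also occur in another gene, all of them in H2-T10. The share was 38.0% for H2-Q6, mostly with H2-Q7, 30.2% for H2-T23, 24.7% for H2-Q4 and 9.86% for H2-Q7. It was 4.69% for H2-K1, 3.56% for H2-D1, 1.69% for Tap1 and 0% for B2m and Nlrc5. Not all partners were class I genes: those of H2-T23 were led by Rab33b and Hook2, and those of H2-Q4 included Olfr1238 and Olfr552. The split between H2-Q6 and H2-Q7 and the level of H2-T22 are therefore uncertain, and the sum of H2-Q6 and H2-Q7 is given beside them. That sum was 8.34 CPM in wild-type cells, 18.2 in heterozygous cells and 14.1 in homozygous cells.

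Over all kept cells Tap1 and Nlrc5, which feed and drive the pathway, were more than 1.5-fold higher in the homozygous library. Tap1 had 18.9 CPM in wild-type cells, 19.5 in heterozygous cells and 29.2 in homozygous cells. Its log2 ratios were 0.63 (0.51 to 0.74) for homozygous and 0.04 (-0.07 to 0.15) for heterozygous. Nlrc5 had 6.29, 4.84 and 9.81 CPM, with log2 ratios of 0.64 (0.45 to 0.84) and -0.38 (-0.58 to -0.17). The homozygous ratios were 0.62 for Tap1 and 0.71 for Nlrc5 in cells with Xist only, and -0.13 and -0.17 against the 74 wild-type cells with Y-linked RNA only. Nlrc5 is a rare transcript here, found in 5.98% of the wild-type cells, 3.62% of the heterozygous ones and 7.94% of the homozygous ones.

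Cells were then placed in classes by the score of fixed marker lists, and 5 classes held at least 50 cells in every library. Gates are ranges of a score, not purified types, and each class name below means the cells that passed that gate. Mature-neutrophil-gated cells had more RNA of the immature neutrophil list than of their own, and cells that passed no gate made up 25.6% to 39.3% of a library. Cells of the erythroid gate numbered 0 to 1 and of the B cell gate 1 to 4 per library. Classes differed in size: immature neutrophils were 27.5% of heterozygous cells but 9.39% of wild-type cells and 6.58% of homozygous ones. Monocytes were 30.3% of the homozygous library, 20.9% of the wild-type and 11.9% of the heterozygous library.

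Of the 5 classes, the same 2 had the lowest classical levels in all 3 libraries, and conventional dendritic cells had the highest. Granulocyte-monocyte progenitors with promyelocytes had 519, 507 and 521 CPM of the classical sum in the wild-type, heterozygous and homozygous libraries. Immature neutrophils had 501, 596 and 499 CPM, so they lay above the progenitors in the heterozygous library, while in the other 2 libraries the intervals of these classes overlapped. Mature neutrophils had 1039, 1436 and 1376 CPM. Monocytes had 1018, 1294 and 1164 CPM, and their wild-type interval of 1001 to 1036 CPM overlapped that of mature neutrophils, 977 to 1104 CPM. Conventional dendritic cells, which prime T cells, were highest of the 5 with 1676, 2041 and 2463 CPM. The small T and natural killer gate stood above all of them at 3114, 2864 and 3469 CPM, from 21, 15 and 28 cells.

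Counts of members past 1.5-fold varied by class. In granulocyte-monocyte progenitors and promyelocytes 0 of 10 were higher in the homozygous library, against 7.87% of all genes. In immature neutrophils 1 of 8 measured members was higher (H2-T22, background 8.34%), and in mature neutrophils 3 of 7 (H2-T22, H2-T23 and Tap1, background 8.29%). The same symbols made up the 3 of 10 in monocytes (background 13%). In conventional dendritic cells 6 of 8 were higher (H2-D1, B2m, H2-Q7, H2-T22, H2-T23 and Nlrc5, background 15.1%). There the log2 intervals of H2-T22 (-0.19 to 1.53) and Nlrc5 (-0.10 to 2.17) spanned 0. In these 5 classes 0 members were at least 1.5-fold lower in the homozygous library, against 9.6%, 10.6%, 17.7%, 9.09% and 12.6% of all genes in the order above.

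For the heterozygous library H2-Q6 and H2-Q7 were among the members past 1.5-fold in each of the 5 classes. The split of reads between these genes is uncertain, so they do not count as separate observations. Their neutrophil ratios rest on few wild-type UMIs. In immature neutrophils wild type had 3 UMIs of each gene, against 47 of H2-Q6 and 92 of H2-Q7 in the heterozygous library. In mature neutrophils wild type had 1 UMI of H2-Q6 and 2 of H2-Q7, against 76 and 145. H2-Q6 and H2-Q7 were the 2 of 10 in granulocyte-monocyte progenitors and promyelocytes (background 6.98%) and in immature neutrophils (7.65%). In immature neutrophils Nlrc5 was at least 1.5-fold lower (background 10.7%), with a log2 interval of -1.63 to 0.36. Of the other classes, each had 0 members at least 1.5-fold lower, against 10.9% of genes in granulocyte-monocyte progenitors and promyelocytes, 21.8% in mature neutrophils, 8.26% in monocytes and 9.36% in conventional dendritic cells. Mature neutrophils added H2-T22 and Tap1 for 4 of 10 (12.1%), monocytes added H2-T22 for 3 of 10 (8.4%), and conventional dendritic cells added H2-Q4 for 3 of 10 (17.4%). The log2 intervals spanned 0 for H2-T22 (-0.09 to 1.67) and Tap1 (-0.10 to 1.81) in mature neutrophils. In conventional dendritic cells those of H2-Q4 (-0.07 to 2.63) and H2-Q6 (-0.01 to 2.05) did too.

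**Figure D2:**
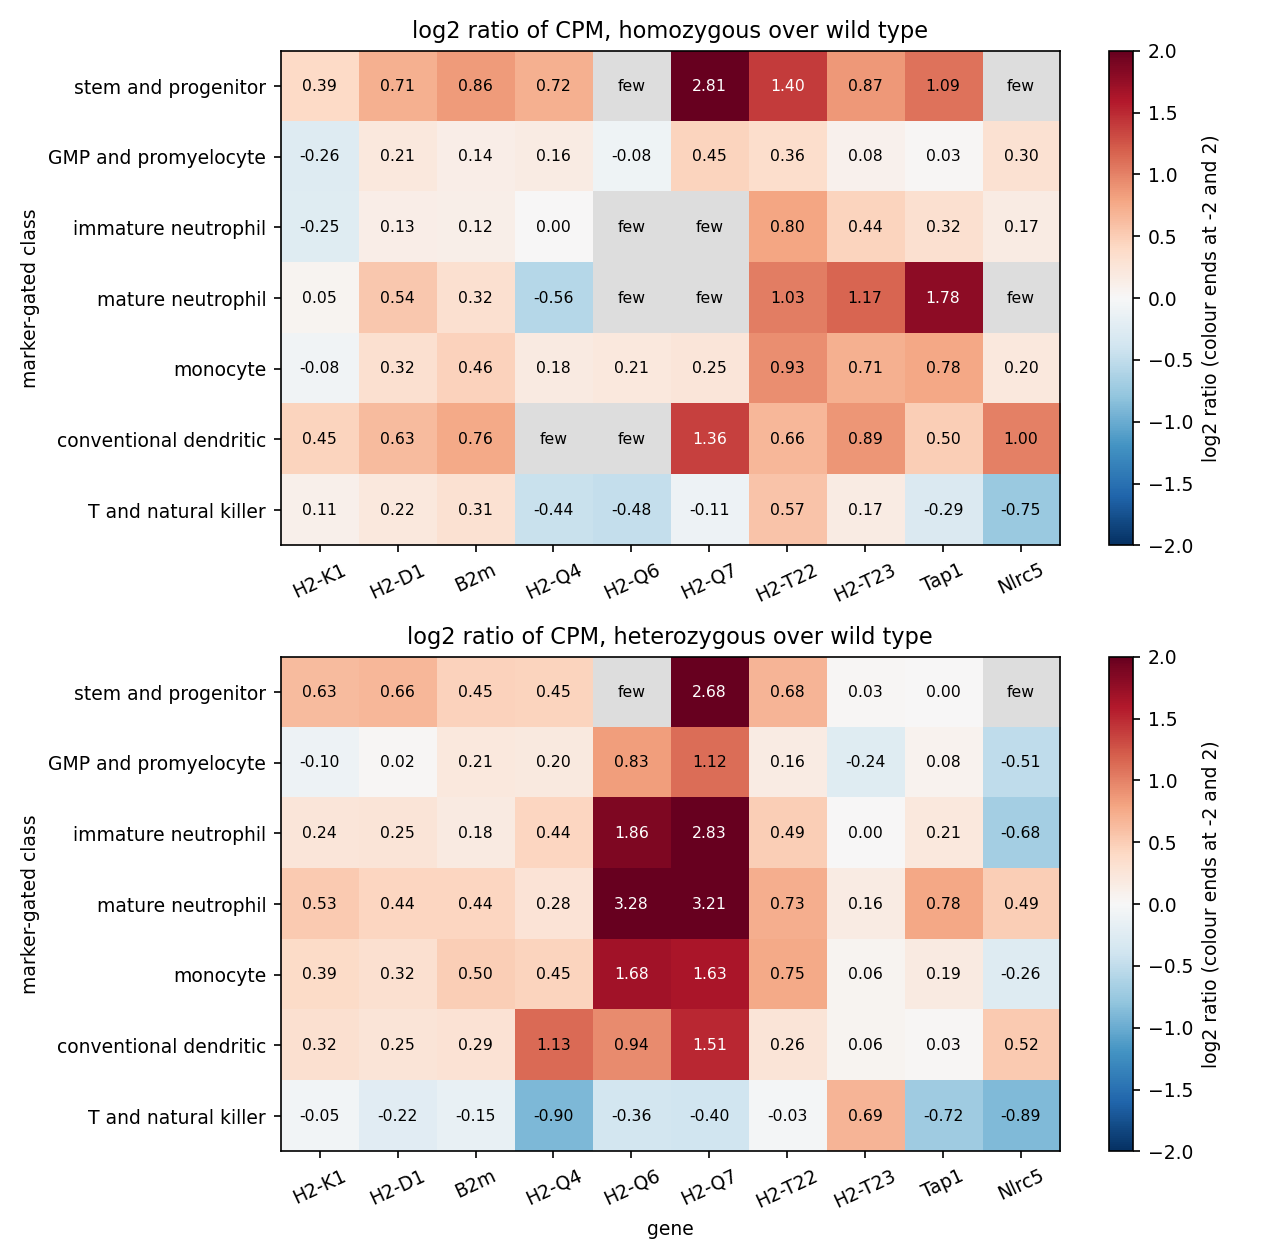
Log2 ratio of CPM for each gene (columns) in each marker-gated class (rows), homozygous over wild type above and heterozygous over wild type below; GMP means granulocyte-monocyte progenitor, and grey cells marked few had under 20 UMIs in the 2 libraries. H2-T22 is above 0 in all 7 homozygous rows, from 0.36 to 1.40, and H2-Q7 is at 1.12 to 3.21 in the heterozygous rows other than T and natural killer cells, where it is at -0.40.

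Monocytes numbered 947 to 1308 cells per library. H2-T23 had 76.5 CPM in wild-type monocytes, 79.5 in heterozygous and 125 in homozygous ones, a homozygous log2 ratio of 0.71 (0.60 to 0.82). It was found in 50.2%, 45.6% and 66.1% of these cells, and in 7.19%, 6.59% and 11.9% after thinning to 1000 UMIs. Tap1 had 24.8, 28.2 and 42.5 CPM there, a homozygous log2 ratio of 0.78 (0.59 to 0.97). H2-T22 had 15.3, 25.8 and 29.1 CPM, with log2 ratios of 0.93 (0.69 to 1.17) for homozygous and 0.75 (0.48 to 1.03) for heterozygous. The same genes stood nearer to wild type in homozygous granulocyte-monocyte progenitors and promyelocytes, where the ratio was 0.08 (-0.09 to 0.26) for H2-T23 and 0.03 (-0.23 to 0.29) for Tap1.

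H2-K1 took opposite directions in different classes of the homozygous library. It had 203 CPM against 244 in wild-type granulocyte-monocyte progenitors and promyelocytes, a log2 ratio of -0.26 (-0.33 to -0.19), and the ratio was -0.25 (-0.42 to -0.08) in immature neutrophils and -0.08 (-0.13 to -0.02) in monocytes. In conventional dendritic cells it had 948 CPM against 694, a ratio of 0.45 (0.27 to 0.63). H2-D1 was above wild type in all 5 classes, from 0.13 (0.01 to 0.25) in immature neutrophils to 0.63 (0.48 to 0.77) in conventional dendritic cells.

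The balance between the 2 classical genes is free of library scaling, since both come from the same cells. H2-K1 made up 41.3% (40.9 to 41.8) of the UMIs of the pair in the wild-type library, 38.8% (38.4 to 39.2) in the heterozygous one and 33.8% (33.3 to 34.2) in the homozygous one. In monocytes it was 34.5% (33.7 to 35.3), 35.5% (34.6 to 36.4) and 28.6% (28.0 to 29.3). In granulocyte-monocyte progenitors and promyelocytes it was 47.0%, 44.8% and 39.0%. The homozygous share was below the wild-type share in all 5 classes, by 2.92 to 7.99 percentage points. In conventional dendritic cells the 2 intervals overlapped, 36.0 to 41.0% against 38.6 to 44.3%. Among cells with Xist and no Y-linked UMI the gap was 3.85 to 10.4 points in the 5 classes. In kept cells with under 2000 UMIs, most of which passed no gate, the homozygous share was instead the higher one. Homozygous cells of that depth had 679 H2-K1 and 562 H2-D1 UMIs, against 170 and 190 in wild type.

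**Figure D3:**
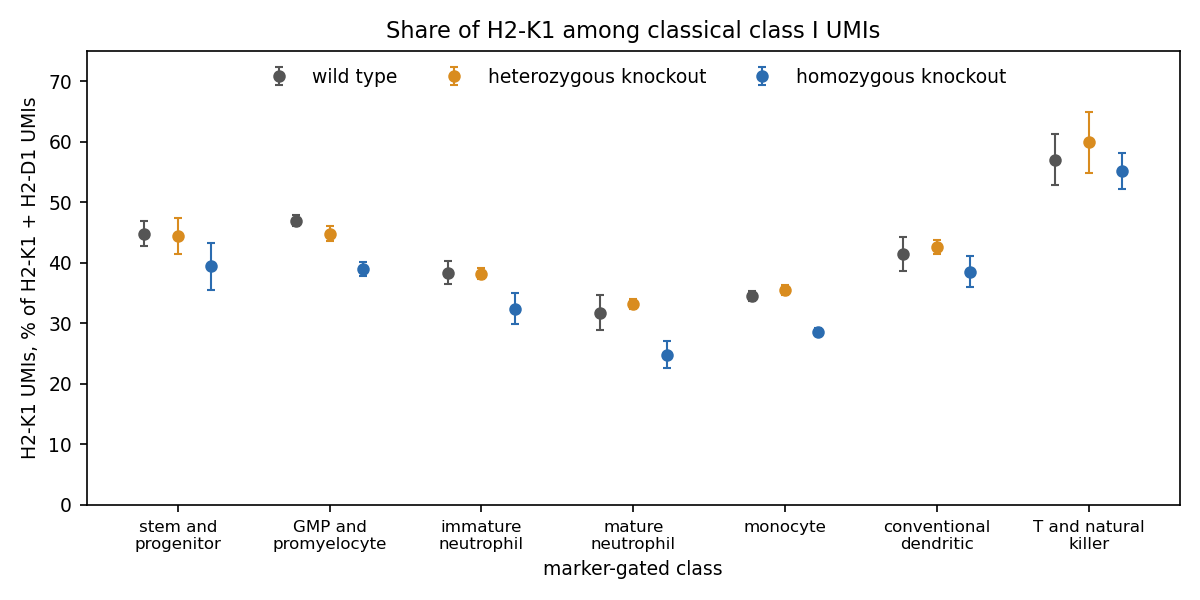
H2-K1 UMIs as a percentage of H2-K1 plus H2-D1 UMIs in each marker-gated class, with 95% Clopper-Pearson intervals; GMP means granulocyte-monocyte progenitor. The homozygous points lie lowest in each class, for example 28.6% against 34.5% in wild-type monocytes, and T and natural killer cells are highest at 55.1% to 59.9%.

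A small number of cells held a large share of the Qa-2 RNA in the wild-type and homozygous libraries. H2-Q7 had 783 CPM in wild-type, 593 CPM in heterozygous and 727 CPM in homozygous T and natural killer gated cells, and all of these cells had a UMI of it. In immature neutrophils, the class with the lowest level, H2-Q7 was found in 0.570% of wild-type cells, 3.06% of heterozygous and 0.352% of homozygous cells, at median depths of 8172 to 8676 UMIs. The 28 T and natural killer gated cells, 0.648% of the homozygous library, held 51.3% of its H2-Q7 UMIs, and the 21 wild-type ones held 37.3%. In the heterozygous library 15 such cells held 8.79%. Of the H2-Q6 UMIs, this gate held 28.0% in wild type, 37.2% with homozygous knockout and 6.64% with heterozygous knockout. The summed RNA of the 8 T and natural killer markers was 14.5 CPM in wild-type cells, 8.60 in heterozygous cells and 30.0 in homozygous cells, with 2 of the 8 at 0 in the heterozygous library. Without these cells the homozygous log2 ratio of H2-Q7 was 0.49 in place of 0.85, below 1.5-fold, and the heterozygous ratio was 1.65 in place of 1.11.

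The higher heterozygous level of the pair was found across myeloid classes. H2-Q7 had 4.04 CPM in wild-type monocytes and 12.5 in heterozygous ones, a log2 ratio of 1.63 (1.15 to 2.13). Homozygous monocytes had 4.80 CPM. In mature neutrophils it had 1.99 CPM from 2 UMIs in wild type against 18.3 CPM from 145 UMIs in the heterozygous library, a ratio of 3.21 (1.33 to 6.27). In conventional dendritic cells it had 19.8, 56.3 and 51.0 CPM. H2-Q6 gave 2.02, 6.49 and 2.34 CPM in monocytes. Sex-linked RNA divides the heterozygous cells: H2-Q7 had 9.58 CPM in monocytes with Y-linked RNA only and 13.1 CPM in those with Xist only, both above the 3.94 CPM of wild-type monocytes with Xist only. Over all cells with Xist only the heterozygous log2 ratio was 2.41 for H2-Q7 and 2.15 for H2-Q6. Over all cells with Y-linked RNA only it was -2.64 and -3.29. The 74 wild-type cells in that comparison included 9 T and natural killer gated cells, which held 34 of their 41 H2-Q7 UMIs. In heterozygous monocytes class II genes, which mark dendritic cells, were above wild type too, with H2-Aa at 2.91 and H2-Ab1 at 2.71. Conventional dendritic cells were gated in part on class II genes, so the class II level within that gate is partly set by it. Within conventional dendritic cells the heterozygous median of the class II genes was 0.27. There H2-Q7 was at 1.51 and H2-Q6 at 0.94, and the H2-Q6 interval (-0.01 to 2.05) spanned 0. Conventional dendritic cells, the myeloid class with the highest H2-Q7 level, were 5.30% of heterozygous and 1.75% of wild-type cells and held 20.9% and 3.70% of the H2-Q7 UMIs. The part of dendritic cell RNA, whether free or from mixed droplets, in the levels of the other classes was not tested.

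**Figure D4:**
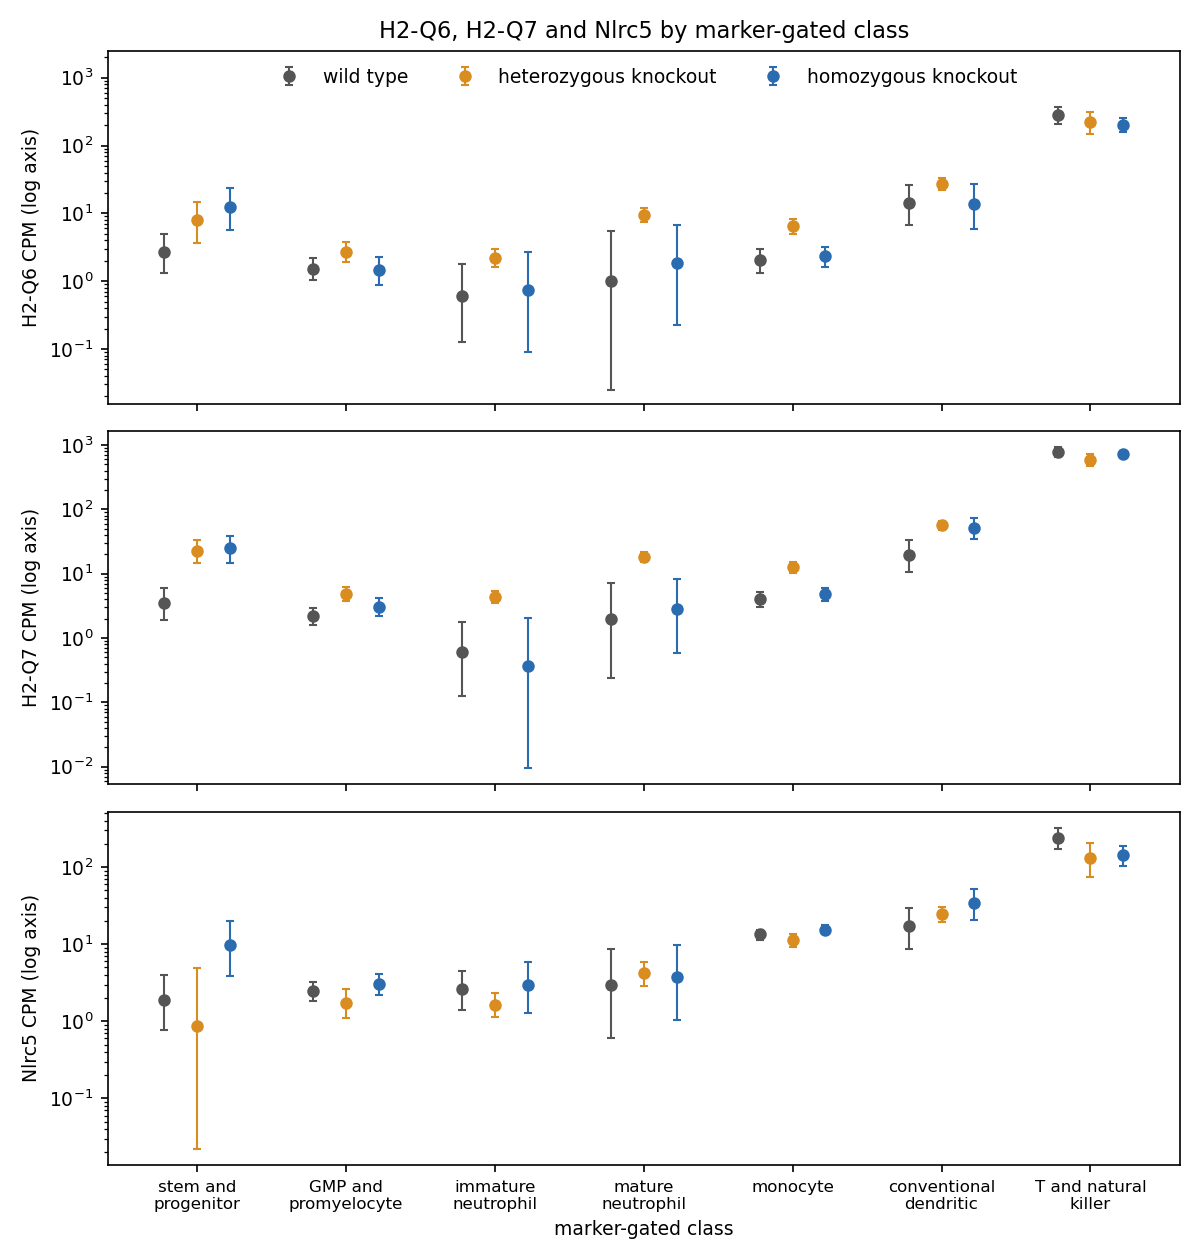
CPM (log axis) of H2-Q6, H2-Q7 and Nlrc5 in each marker-gated class and library, with 95% Poisson intervals; GMP means granulocyte-monocyte progenitor. T and natural killer gated cells are highest in each panel, with H2-Q7 at 593 to 783 CPM, and in mature neutrophils the heterozygous H2-Q7 level of 18.3 CPM lies above the 1.99 CPM of wild type.

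Nlrc5 also peaked in T and natural killer gated cells, at 239, 129 and 142 CPM. Monocytes had 13.4, 11.2 and 15.4 CPM and conventional dendritic cells 17.0, 24.4 and 34.0 CPM. In granulocyte-monocyte progenitors and promyelocytes it had 2.46, 1.73 and 3.03 CPM, and the homozygous interval there spanned 0 (-0.34 to 0.93 on the log2 scale). The homozygous ratio in monocytes was 0.20 (-0.08 to 0.49), against 0.64 in all kept cells. The monocyte interval spanned 0 and ended below 0.64. In both neutrophil classes, from few UMIs, and in conventional dendritic cells the homozygous interval of Nlrc5 spanned 0 too. In T and natural killer gated cells the homozygous ratio was -0.75 (-1.37 to -0.11).

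The stem and progenitor gate held 249 wild-type, 109 heterozygous and 46 homozygous cells, too few for the 5-class set. Its cells carried more RNA of the granulocyte-monocyte progenitor list than of their own markers. The classical sum was 592 CPM in wild-type cells, 927 in heterozygous cells and 883 in homozygous cells, and the nonclassical sum was 98.8, 136 and 214 CPM. The homozygous log2 ratios were 0.58 (0.45 to 0.70) and 1.11 (0.83 to 1.39).

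Depth of the single cell moved with some members. H2-K1 had 605 CPM in wild-type cells with under 2000 UMIs, 356 in those with 2000 to under 10000 and 264 in those with at least 10000. In the homozygous library it had 835, 387 and 250 CPM over the same bins, above wild type in the shallow cells and below it in the deep ones. H2-Q4 had 149 CPM (123 to 178) in shallow homozygous cells against 60.5 CPM (35.2 to 96.8) in shallow wild-type cells, and 8.01 against 7.59 CPM in the deepest cells. Shallow cells were 15.5% of the homozygous, 4.07% of the wild-type and 6.86% of the heterozygous library, and 60.6% to 78.2% of them passed no gate. With each cell of at least 1000 UMIs thinned to 1000, which gives these cells equal weight and leaves out shallower ones, the homozygous log2 ratio was 0.30 for H2-K1 and 1.46 for H2-Q4. With only cells of at least 1000 UMIs and an mt- share under 5%, it was -0.03 and 0.14. The part of cell depth in these levels was not tested.

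**Figure D5:**
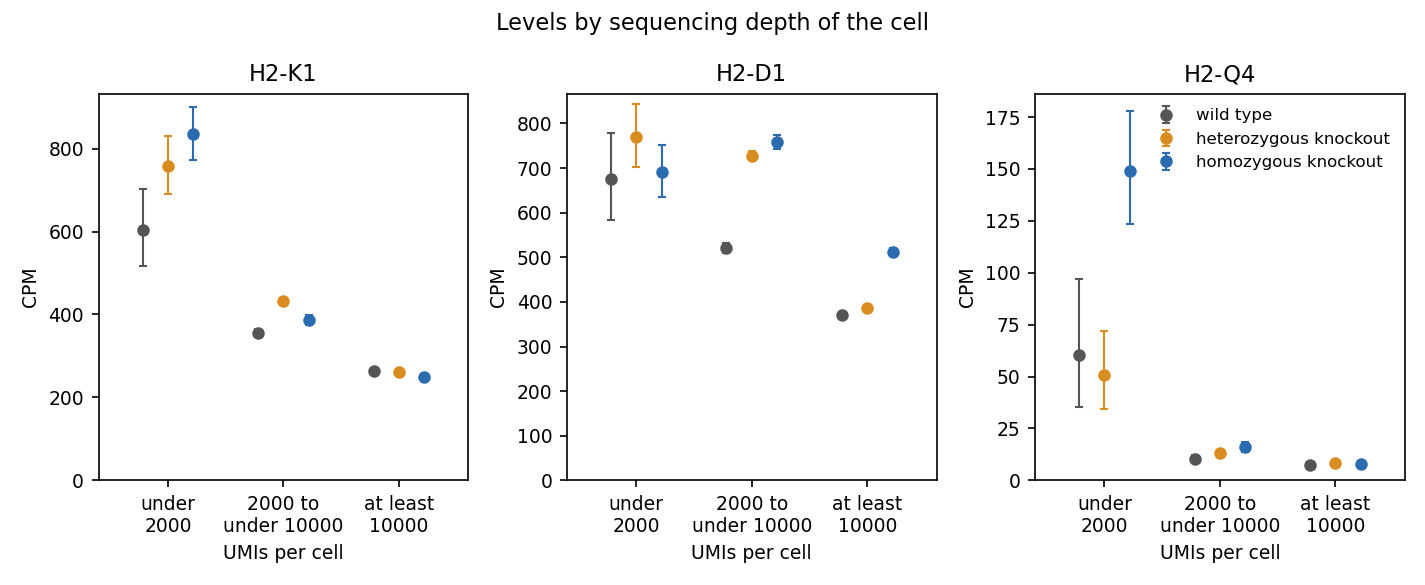
CPM of H2-K1, H2-D1 and H2-Q4 in kept cells binned by UMIs per cell, with 95% Poisson intervals, per library. H2-Q4 reaches 149 CPM in homozygous cells with under 2000 UMIs and is at 7.59 to 8.56 CPM in the deepest cells of the 3 libraries.

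The other genes of the pathway were described from lists chosen by function, over members with at least 20 UMIs. Of 7 peptide loading genes 0 were past 1.5-fold in homozygous cells, and their median log2 ratio was -0.02. Tapbpl, an editor of bound peptides, was at 0.27, Tap2 at 0.25, the loading factor Tapbp (tapasin) at 0.23 and the chaperone Calr at -0.20. Of 5 immunoproteasome genes 0 were past 1.5-fold, with a median of 0.23; the activator subunit Psme2 was at 0.49, the catalytic subunits Psmb9 at 0.29 and Psmb10 at 0.23, and the activator subunit Psme1 at 0.19. Of 7 constitutive proteasome genes 0 were past 1.5-fold, with a median of 0.06; Psmb5 was at -0.16, Psmc1 at 0.15, Psmb7 at 0.12 and Psmd1 at -0.12. All 3 medians are over all kept cells and are read against 0.06 over all genes, and the counts of 0 against 11.5% of genes higher and 9.62% lower. By class the immunoproteasome median was 0.11 in granulocyte-monocyte progenitors and promyelocytes, 0.04 in immature and 0.24 in mature neutrophils. It was 0.32 in monocytes and 0.51 in conventional dendritic cells. The medians over all genes were 0.03, -0.02, -0.12, 0.10 and 0.03 in that order.

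Against wild type, the heterozygous medians of these 3 lists were -0.48, -0.33 and -0.33, against -0.14 over all genes, and 2 of 7, 1 of 5 and 1 of 7 genes were at least 1.5-fold lower, against 17.6% of all genes. Calr was at -0.82. H2-K1, H2-D1 and B2m were above wild type in that library while Tap1 was at 0.04 and the 7 loading genes ranged from -0.82 (Calr) to -0.02 (Tap2).

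Other class I and class I-like genes had 8 of 14 members measured, and 4 of them were at least 1.5-fold higher in the homozygous library, against 11.5% of all genes, with a median of 0.60. H2-T24 was at 0.99, H2-T10 at 0.87, H2-Q5 at 0.73 and Hfe, which regulates iron uptake, at 0.71. H2-T10 and H2-Q5 share 3′ windows with H2-T22 and H2-Q7. Of these 8, 2 were higher (11.6% of all genes) and 1 lower (17.6%) in heterozygous cells, where the median was 0.28.

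Among 13 transcription factors of class I genes, the interferon regulatory factor Irf2 was at a log2 ratio of 0.56 in the homozygous library, and the NF-Y subunits Nfya and Nfyb were at 0.52 and 0.36. The median over the list was 0.17 there and 0.09 in heterozygous cells.

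Interferon response genes stood further above wild type than the class I genes in the homozygous library. Of 12 genes, 11 were at least 1.5-fold higher, against 11.5% of all genes, and the median log2 ratio was 1.97. Ifit3, an antiviral protein, had 22.6 CPM against 1.41 in wild type, a ratio of 4.0 (3.70 to 4.32). Ifit2 was at 2.77, Ifit1 at 2.42 and Rsad2 (viperin) at 2.38. Heterozygous cells had 2 of 12 higher and 1 lower, near the 11.6% and 17.6% of all genes, with a median of 0.16. By class the homozygous median was 0.94 in granulocyte-monocyte progenitors and promyelocytes, 1.15 in immature neutrophils, 1.34 in mature neutrophils, 1.82 in monocytes and 1.21 in conventional dendritic cells. The median over the measured class I members was 0.15, 0.15, 0.54, 0.28 and 0.71 in those classes. Single members differed: H2-K1 was at -0.26, -0.25, 0.05, -0.08 and 0.45, and H2-T23 at 0.08, 0.44, 1.17, 0.71 and 0.89. The part of interferon signalling in the class I levels was not tested.

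Transcripts of the interferons themselves were scarce. Ifnb1 had 2 UMIs in the wild-type library and 0 in the other 2, where 0 allows up to 3 UMIs, and Ifna4 had 0 in all 3. Ifng had 0.894, 0.233 and 1.87 CPM in the wild-type, heterozygous and homozygous libraries, a homozygous log2 ratio of 1.06 (0.57 to 1.56). The summed T and natural killer markers had the same order of libraries, at 14.5, 8.60 and 30.0 CPM. The part of those cells in the Ifng level was not tested. The receptor genes Ifngr2, Ifnar1 and Ifngr1 were at 0.46, 0.37 and 0.14.

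MHC class II presentation, the pathway that shows peptides from outside the cell to CD4 T cells, had the other order of libraries. Heterozygous cells had 5 of 7 genes at least 1.5-fold higher (11.6% of all genes), with a median log2 ratio of 2.28 against -0.14 over all genes. Homozygous cells had 3 of 7 (11.5%), with a median of 0.58 against 0.06. H2-Ab1 was at 2.51 in heterozygous and 0.94 in homozygous cells, H2-Eb1 at 2.55 and 0.68, H2-Aa at 2.28 and 0.58, and Ciita, the class II counterpart of Nlrc5, at 2.68 and 1.18. Conventional dendritic cells, gated in part on these genes, were 5.30% of heterozygous against 1.75% of wild-type cells. Within the other 4 classes the heterozygous median of these genes was 1.61 to 1.96. Within conventional dendritic cells it was 0.27, a value partly set by that gate.

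Over 15 sums of cells (5 classes in 3 libraries), the genes whose log2(CPM + 1) most resembled that of the classical sum were sought among 5978 genes with a mean of at least 20 CPM. The 10 of highest Pearson correlation were Traf1 (0.977), H2-K2, Atp6v0a1, Cdk14, Clec4n, Atox1, Fuca1, Gpr132, Inpp5d and Gpr137b (0.952). Among the members outside the sum, the correlation was 0.927 for H2-T22, 0.906 for H2-T23, 0.902 for B2m, 0.832 for Nlrc5, 0.828 for H2-Q7, 0.822 for Tap1, 0.806 for H2-Q6 and 0.733 for H2-Q4. The sums share libraries and gates, so the values describe likeness only.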

How the data were processed

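The deposited matrices hold raw UMI counts per gene and barcode, made with Cell Ranger 8.0.1 per the file headers; per the submitters' processing notes, STAR and mm10 were used too, and the 10x Chromium 3′ v3 kit per the labels' protocols. The lowest total was 500 UMIs, so barcodes had been filtered. Of 33696 gene IDs, 1735 are not among the GENCODE M21 transcripts, so the annotation behind the counts is uncertain and no gene body position is given.

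Groups came from the stated genotype, since the title letters could be read in more than one way. Cells were kept with at least 500 UMIs, 200 genes and an mt- share under 10%. Counts were summed per library and class and given as CPM. Intervals are 95%: Poisson (Garwood) for levels, Clopper-Pearson for shares, exact conditional for ratios. PCR and cell-to-cell spread are not covered. A floor of 3 counts was set for 0.

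Each cell was scored with 16 marker lists (mean z-scored log of UMIs per 10000). A class needed a top score of at least 0.3, a margin of 0.1 and 3 markers with a UMI. These thresholds were set after the data were seen. Doublets were kept. Scrublet's own threshold marked 0 to 2 cells per library, which is not a working call, so an alternative left out its top-scoring 6.48% to 8.57% of cells (0.8% per 1000 barcodes).

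Named were all 10 members, up to 4 genes per list with the largest homozygous ratio, and the 10 genes of likest pattern. One result for the transcription factor list is not reported here. Members and lists were chosen with earlier results of these data known. Bins of cell depth were added after the data were seen. Promoter motif letters were set with the sequences in view, and the kB-type letters were shortened after a first search with a longer form, which the same 4 members matched and a smaller share of all windows held. The ratio code was tested on simulated counts. Tools were Python 3.11.15, numpy 2.4.6, scipy 1.17.1, pandas 2.3.3, scanpy 1.11.5 and matplotlib 3.10.9.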

Additional observations from a re-analysis of the deposited data

Results flagged for a closer look

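H2-K1 in the homozygous library had an interval above 0 in conventional dendritic cells (log2 ratio 0.45 to wild type) and below 0 in granulocyte-monocyte progenitors and promyelocytes (-0.26), 0.71 apart on the log2 scale. In the heterozygous library H2-K1 was at 0.63 in stem and progenitor gated cells and -0.10 in granulocyte-monocyte progenitors and promyelocytes, 0.74 apart; median-of-ratios scaling shifts every heterozygous ratio by 0.15, more than the -0.10. Nlrc5 in the homozygous library was at 2.34 in stem and progenitor gated cells, from 7 UMIs in each library, and at -0.75 in T and natural killer gated cells, 3.08 apart. None of the 3 differences between classes was tested, because each class has 1 library per genotype.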

How the results depend on the processing

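No paired analysis was possible because each genotype has 1 library; for the same reason none could be left out. Median-of-ratios scaling shifts all log2 ratios by 0.15 in the heterozygous and by -0.07 in the homozygous library. The classical homozygous log2 ratio (0.31) was 0.35 with every deposited barcode and with an mt- share under 25%, 0.28 with at least 1000 UMIs and an mt- share under 5%, 0.43 with equal weight per cell, 0.25 with median-of-ratios scaling, 0.28 without mt-, ribosomal protein and haemoglobin genes, 0.17 at wild-type class shares, 0.52 in cells with Y-linked RNA only, 0.26 in cells with Xist only and 0.44 after thinning. The heterozygous one (0.31) was 0.28 with the stricter cell filter, 0.42 with equal weight, 0.46 with median-of-ratios, 0.21 without those genes, 0.22 at wild-type class shares, -0.22 in Y-linked only cells, 0.65 in Xist only cells and 0.43 after thinning. The nonclassical homozygous ratio (0.66) was 0.73 with equal weight, 0.59 with median-of-ratios, 0.51 at wild-type class shares, 0.32 in Y-linked only cells, 0.60 in Xist only cells and 0.73 after thinning. The heterozygous one (0.18) was 0.33 with median-of-ratios, 0.081 without those genes, -1.50 in Y-linked only cells, 0.63 in Xist only cells and 0.35 after thinning. Members at least 1.5-fold higher in the homozygous library (5) were 3 with equal weight, 2 with median-of-ratios, 2 at wild-type class shares and 2 in Y-linked only cells, and those in the heterozygous library (2) were 0 in Y-linked only and 5 in Xist only cells.

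In Y-linked only cells, of which wild type had 74, H2-Q6 and H2-Q7 turned to -3.29 and -2.64 for heterozygous, and Nlrc5 and Tap1 to -0.17 and -0.13 for homozygous; the cause was not tested. Over 12 alternatives, 110 of 120 homozygous and 107 of 120 heterozygous member ratios kept their direction. Leaving out T and natural killer gated cells was added after the data were seen and left 4 homozygous members past 1.5-fold. With a stricter gate, also added then, the homozygous H2-K1 share stayed below wild type in 5 of 5 classes. Depth limits H2-Q6, H2-Q7 and Nlrc5 in neutrophils, where some levels rest on 1 to 3 UMIs.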

Other observations

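T and natural killer gated cells, the class with the highest classical and Qa-2 levels, differed in sex-linked RNA from the cells around them. In the wild-type library 9 of 21 had Y-linked UMIs and no Xist and 8 had both, whereas 65 of the 5583 other cells (1.16%) had Y-linked UMIs and no Xist. In the homozygous library 16 of 28 had Y-linked UMIs only and 9 had both, against 126 of 4290 other cells (2.94%) with Y-linked UMIs only. In the heterozygous library 8 of 15 had Y-linked UMIs only, against 56.6% of the other cells. Of the 41 H2-Q7 UMIs in wild-type cells with Y-linked RNA only, 34 came from this gate, and of the 125 homozygous ones 103 did.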
